A study of Mus musculus with 12 samples.

Results

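The genes described here are 4 Ras GTPases (Hras, Nras, Rras and Rras2), 2 GTPase-activating proteins (Nf1 and Rasa1), the exchange factor Sos1 and the kinase Braf, 8 genes of the 54547 in the deposited tables. They were chosen by name as Ras genes and regulators of Ras, not by their values, and all 8 passed the filter on low values, as did 29835 genes in all. RNA was sequenced from sorted cells of mice on a 129;C57BL/6 mix background, in 4 groups of 3 libraries. RasV12 GFP+ and RasV12 CD11b+ cells came from brain tumors of Msi1-CreER;RasV12 mice, and control GFP+ and control CD11b+ cells from the cerebellum of Msi1-CreER;GFP mice, so all 4 groups carried Msi1-CreER. This transgene places a tamoxifen-inducible Cre recombinase under the Musashi-1 gene, which is active in neural stem and progenitor cells. RasV12 is an oncogenic Ras, and CD11b is the integrin chain of microglia, macrophages, monocytes and neutrophils. Tumor against cerebellum and RasV12 against control cannot be told apart in this design. The labels name neither the Ras gene that carries the V12 change nor the animals behind each replicate, so p-values measure the spread between libraries, which may be technical. Neither ages, nor sort gates, nor any pooling of animals could be read from the labels.

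Ras proteins are membrane-bound switches, active with GTP and inactive with GDP. Exchange factors such as Sos1 load GTP when receptors are engaged, and GTPase-activating proteins (GAPs) such as neurofibromin, the product of Nf1, and p120 RasGAP, the product of Rasa1, speed GTP hydrolysis. Active Ras recruits RAF kinases, Braf among them, which pass the signal through MEK to ERK. A change of the glycine at codon 12 of the classical Ras proteins to valine makes them insensitive to GAPs and keeps them active. In the brain, loss of NF1 predisposes to glioma, and BRAF is altered in several glial tumors.

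Reads recovered from the deposited values came to 18519240 to 34432725 in GFP+ libraries and 7883870 to 34601205 in control CD11b+ libraries. RasV12 CD11b+ libraries 1, 2 and 3 held 3642570, 2951629 and 23589310 reads, and replicates of that group correlated across genes with r of 0.512 to 0.537, against 0.657 to 0.887 in the other groups. Counts over olfactory and other receptor genes and genes of type TEC, which brain and myeloid cells hardly use, were taken as a measure of background reads. They amounted to 2.50 to 6.61 normalized counts per kb of exon in GFP+ libraries, 9.23 and 10.1 in 2 of the control CD11b+ libraries but 52.4 in the other (replicate 2), and reached 72.8 to 109 in the RasV12 CD11b+ group. Itgam, the gene of CD11b, stood at 5010 to 5256 normalized counts in CD11b+ cells of controls, at 1350 to 3101 in those of tumors and at no more than 0.5 in any GFP+ library. All 10 listed myeloid markers were detected in every CD11b+ library, with sums of 146666 to 482196 in controls and 44521 to 63529 in RasV12. In control GFP+ libraries these 10 markers summed to 179 to 837, with Itgam, Csf1r, Aif1 and Fcgr3 at 0. In RasV12 GFP+ libraries they summed to 1063 to 1938, with Tmem119 at 0. Most of the latter sum was Cd68, at 868 to 1497, against 0 to 102 in control GFP+ libraries. Ptprc stood at 28.6 to 181 in RasV12 and 1.8 to 94.6 in control GFP+ libraries, and P2ry12 at 36.7 to 175 and 0 to 355. The 6 oligodendrocyte markers summed to 945812 to 1588020 in control and 2842 to 17698 in RasV12 GFP+ libraries, those of neurons to 49383 to 70182 and 1943 to 3014, and mitochondrial genes took 20.1 to 30.4% and 1.53 to 2.62% of counts. Astrocyte and Bergmann glia markers summed to 263511 to 280915 and 35564 to 92218. Erythroid markers ran from 8894 to 774410 within control GFP+ libraries and from 83 to 507 in RasV12. Neural stem and progenitor sums were higher in RasV12 (3076 to 5247 and 6520 to 10418), with Nes higher but Prom1 lower. In CD11b+ cells the mitochondrial share was 0.630 to 2.54% in controls and 13.3 to 17.7% in RasV12. Sums of 5 neutrophil markers there were 9120 to 15224 and 820 to 1676, and those of 6 endothelial and pericyte markers 450 to 1783 and 3423 to 3902. Of the neutrophil markers, S100a8 stood at 4303 to 7539 and 352 to 1021, and S100a9 at 4643 to 7623 and 379 to 942. Ly6g and Elane were low in controls (9.0 to 132 and 3.5 to 22.7) and at 0 in RasV12. Mpo went the other way, with 25.1 to 156 in controls and 44.3 to 252 in RasV12. The part of these differences in the results was not tested.

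Hras, Rras and Rras2 are shown around the codon whose change to valine defines V12, because that codon and the letters beside it show how alike, and how separable by sequence, the genes are. Each line gives 60 coding bases, 5′ to 3′, from GENCODE vM21 transcripts of GRCm38, with the glycine codon in capitals. In Rras and Rras2 the capitals mark the codon at the same place of the motif.
Hras, chr7:141192881-141192940, minus strand, exon 2, glycine codon 12: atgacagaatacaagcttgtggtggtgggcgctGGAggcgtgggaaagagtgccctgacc
Rras, chr7:45018094-45018153, plus strand, exon 1, glycine codon 38: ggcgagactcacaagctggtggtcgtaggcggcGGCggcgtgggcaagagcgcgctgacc
Rras2, chr7:114117411-114117470, minus strand, exon 1, glycine codon 23: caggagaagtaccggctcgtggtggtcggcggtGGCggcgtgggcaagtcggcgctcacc

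The capitals begin a stretch of the nucleotide-binding loop. Its consensus, GGNGGNGTNGGNAAN, keeps the bases that all 4 genes share over 5 codons, from Hras codon 12 on and the most alike in-frame stretch of the others, and it occurred once in frame in each of the 4 coding sequences. Of 21877 protein-coding genes, 0.777% held these letters on the coding strand of a transcript and 0.512% on the other strand. Over 160 codons aligned at the motif without gaps, 79.4% of bases were identical between Hras and Nras and 66.9% between Rras and Rras2, against 52.3 to 55.2% for the other 4 pairs. The longest exact run that any pair shared was 23 bases, and no stretch of 50 bases occurred in 2 of the 8 genes. Stretches of 50 bases shared with any other gene made up 0.733% of those of Nras, 0.692% of those of Braf and 0.0684% of those of Nf1, and none in the other 5. Reads from the RasV12 transgene that align to a mouse Ras gene cannot be told apart from endogenous reads in these tables.

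Hras, a classical Ras gene (chromosome 7, 141189105 to 141194005, minus strand, exon length 3733 bases), had 2308.5, 3326.6 and 3298.2 normalized counts in control GFP+ libraries 1, 2 and 3. RasV12 GFP+ libraries held 3748.3, 2576.7 and 2611.2 and overlapped with them. Control CD11b+ libraries held 602.8, 253.0 and 389.9, below all 6 GFP+ libraries. In RasV12 CD11b+ libraries Hras had 205.0, 16.6 and 9.0, from 46, 3 and 15 reads, below every control CD11b+ library.

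Between CD11b+ and GFP+ cells of tumors, Hras fell by 6.47 ± 0.89 on the log2 scale (SE, limma-trend adjusted p = 0.000467), from a mean of 2979 ± 667 to 76.9 ± 111 (SD, n = 3), 38.8-fold. Without any one library, or under each of the other 15 settings tried, this call stood, with adjusted p of 2.97e-07 to 0.00827 over the 27 alternatives. Leaving out RasV12 CD11b+ 1 moved it to -7.79 and leaving out RasV12 CD11b+ 3 to -5.61. In controls Hras was also lower in CD11b+ cells, by 7.17-fold in means of 415 ± 176 and 2978 ± 580 (log2 fold change -2.91 ± 0.89, limma-trend adjusted p = 0.0298). This call was kept in 19 of 27 alternatives. It was lost without control GFP+ 1, 2 or 3 or control CD11b+ 2 or 3, with adjusted p of 0.0536, 0.0753, 0.0704, 0.104 and 0.0687. It was also lost with upper-quartile scaling (-2.12, adjusted p = 0.0803), with quantile scaling (0.0708) and with the second background subtraction (0.129). In bulk sorted cells, fewer cells with a transcript and less of it per cell cannot be told apart.

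RasV12 against control, Hras was lower in CD11b+ cells by 3.56 ± 0.89 on the log2 scale (limma-trend adjusted p = 0.0368). This call was kept in 14 of 27 alternatives. It was lost in a fit of the 6 CD11b+ libraries alone (-3.56 ± 1.29, adjusted p = 0.171), where 0 of 29835 genes passed. The call was also lost with edgeR (0.0674) and DESeq2 (0.0671) on recovered reads and without the filter on low values (0.0569). It was also lost on leaving out control GFP+ 1 or 3 (adjusted p = 0.0519 and 0.0525), RasV12 GFP+ 1, 2 or 3 (0.0559, 0.0607 and 0.0603), control CD11b+ 1 or 3 (0.149 and 0.125) and RasV12 CD11b+ 2 or 3 (0.0905 and 0.0678). Without the shallow libraries RasV12 CD11b+ 1 and 2 together it was -5.29, a value of the lone library RasV12 CD11b+ 3 with 15 Hras reads. The difference of the RasV12 effects between CD11b+ and GFP+ cells, -3.56 ± 1.26, did not pass for Hras (adjusted p = 0.133), and it did without RasV12 CD11b+ 1 (-4.88, adjusted p = 0.00605). The background expected for a gene of its length and GC content was 155 to 213 normalized counts in RasV12 CD11b+ libraries. Hras stood far below that estimate in RasV12 CD11b+ 2 and 3 (16.6 and 9.0) and just above it in RasV12 CD11b+ 1. The estimate is an average over genes, and values of single genes can lie far below it. Across the 12 libraries Hras correlated with background per kb with r of -0.89, a description over libraries that also differ in cell type and depth. In GFP+ cells the Hras values of RasV12 and control differed by -0.0021 ± 0.89 on the log2 scale (95% interval -1.92 to 1.92). The SE was 0.24 in a fit of the 6 GFP+ libraries alone.

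Nras (chromosome 3, 103058285 to 103067914, plus strand, exon length 5331 bases), the other classical Ras gene here, did not differ between groups beyond the spread of its libraries. It had 1456.9, 2288.1 and 2100.8 normalized counts in control GFP+ and 1928.3, 1707.7 and 919.1 in RasV12 GFP+ libraries. CD11b+ libraries held 2376.7, 1691.4 and 1795.6 in controls and 851.1, 1833.1 and 2901.9 in RasV12. The libraries of all neighbouring groups overlapped in order of their means, and none of the 5 comparisons passed the test. The 95% intervals of the log2 fold changes were -1.42 to 0.62 for RasV12 in GFP+ cells, -1.24 to 0.80 for RasV12 in CD11b+ cells, -0.83 to 1.21 for CD11b+ against GFP+ in tumors and -1.01 to 1.04 in controls.

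Within a library, the ratio of Hras to Nras per length does not depend on how libraries were scaled. The ratio was 2.27, 2.08 and 2.25 in control GFP+, 2.78, 2.16 and 4.07 in RasV12 GFP+, 0.363, 0.214 and 0.311 in control CD11b+ and 0.345, 0.0130 and 0.00444 in RasV12 CD11b+ libraries. The last 3 rest on 46, 3 and 15 Hras reads, below the background estimate in 2 of the libraries, so their size is coarse. The level of Hras was thus above that of Nras in all 6 GFP+ libraries and below it in all 6 CD11b+ libraries. On the log2 scale the ratio was 4.84 lower in CD11b+ than in GFP+ cells, averaged over both genotypes (difference -4.84, p = 0.005, two-sided exact permutation test within genotype, the smallest p that 400 arrangements allow, adjusted p = 0.025 over 5 tests). Without RasV12 CD11b+ 1 the difference was -5.75 and without RasV12 CD11b+ 3 it was -4.18. Within tumors and within controls, differences of -6.74 and -2.93 each reached p = 0.10, the smallest that an exact permutation test of 3 against 3 libraries allows. RasV12 and control did not differ in this ratio beyond the spread, by 0.40 in GFP+ cells and -3.42 in CD11b+ cells (exact permutation p = 0.30 for each). The ratio of Hras to Nras was chosen after the levels were seen, so none of its p-values allows for that choice.

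**Figure D1:**
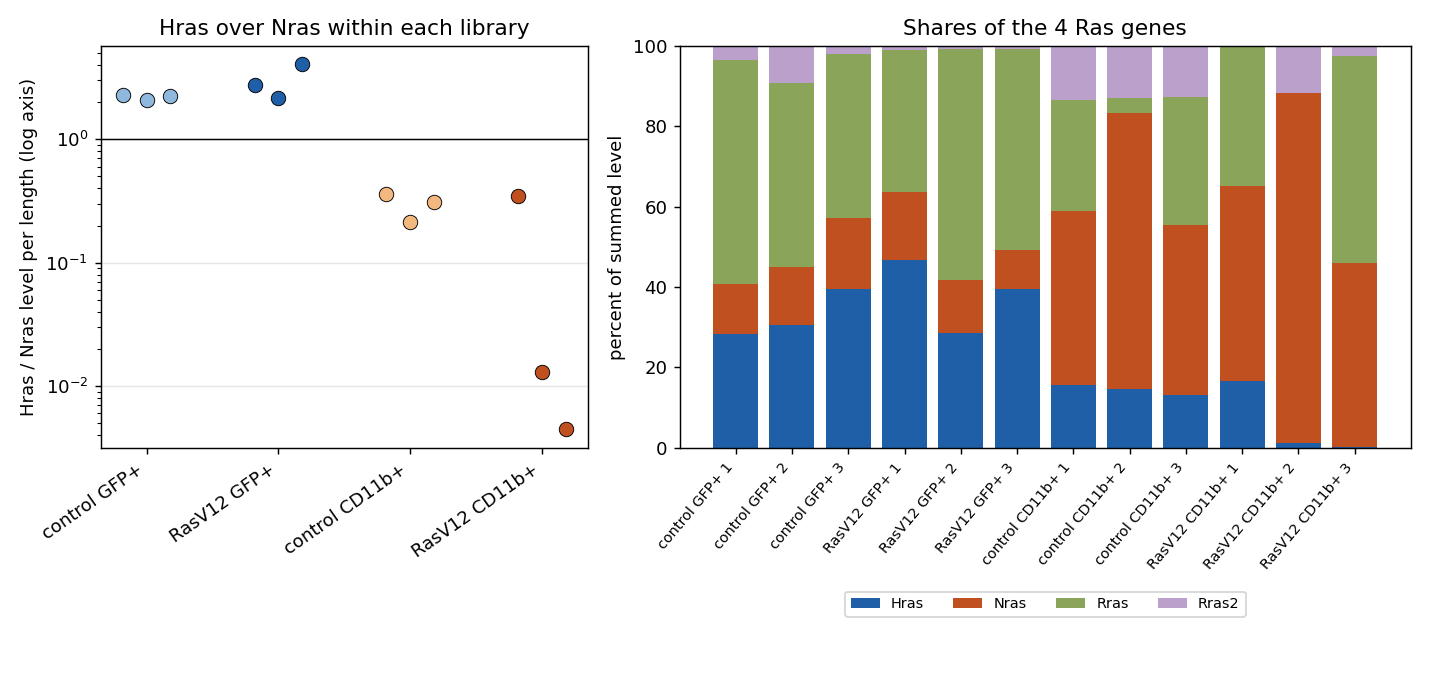
Left, the Hras level over the Nras level per length in each library, on a log axis, where points above 1 mark libraries with more Hras: all 6 GFP+ libraries lie above 1 and all 6 CD11b+ libraries below. Right, the share of each of the 4 Ras genes in their summed per-length level in each of the 12 libraries, with Nras the larger of Hras and Nras in every CD11b+ library.

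Rras (chromosome 7, 45017961 to 45021647, plus strand, exon length 1121 bases) encodes R-Ras, a relative linked to integrin function. It had 1363.0, 1505.3 and 1023.4 normalized counts in control GFP+ and 852.6, 1567.8 and 994.6 in RasV12 GFP+ libraries. Control CD11b+ libraries held 318.3, 19.5 and 285.7, and RasV12 CD11b+ libraries 129.2, 0.0 and 682.2, from 29, 0 and 1136 reads. No read in RasV12 CD11b+ 2 allows up to 16.6 normalized counts, for counting error only. All CD11b+ libraries lay below all GFP+ libraries, in tumors as in controls. The difference in tumors did not pass the test (log2 fold change -4.62 ± 1.79, limma-trend adjusted p = 0.0536), and it passed in 7 of 27 alternatives. These were the FPKM table (adjusted p = 0.0432), upper-quartile and quantile scaling (0.0444 and 0.0432), a pseudocount of 10 (0.0336), a filter at 50 (0.0489), the replicate block (0.0377) and leaving out RasV12 CD11b+ 3 (-6.59, adjusted p = 0.0110). Without RasV12 CD11b+ 2, the library with no read, it was -1.88 (adjusted p = 0.192). That in controls did not pass either (-3.38 ± 1.79, adjusted p = 0.166), except without RasV12 CD11b+ 2 (adjusted p = 0.0236) or without RasV12 CD11b+ 1 and 2 together (0.0202), where the fold change is the same and only the spread shared with the other groups differs. By group means the level in CD11b+ cells was 4.21-fold lower in tumors and 6.24-fold lower in controls. Over the 12 libraries Rras correlated with background per kb with r of -0.76, again as a description.

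Rras2 (chromosome 7, 114046782 to 114117781, minus strand, exon length 3554 bases) encodes TC21, an R-Ras relative that transforms cells when activated. It had 280.9, 950.3 and 154.6 normalized counts in control GFP+ libraries and 70.0, 56.2 and 48.3 in RasV12 GFP+ libraries. The 3 tumor libraries were alike and all lay below the 3 control libraries, which spread widely. The means of 462 ± 428 and 58.2 ± 11 differed 7.94-fold, with a log2 fold change of -2.57 ± 1.54 that did not pass the test (limma-trend adjusted p = 0.423). DESeq2 on the recovered reads put this difference at -2.99 ± 1.07 (adjusted p = 0.0334), the only alternative of 27 that called it.

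In CD11b+ cells, Rras2 stood at 497.0, 212.5 and 358.6 in control and 0.0, 166.1 and 108.7 in RasV12 libraries, from 0, 30 and 181 reads in the latter. No read in RasV12 CD11b+ 1 allows up to 13.4 normalized counts. The groups did not overlap, and the difference did not pass the test (log2 fold change -3.68 ± 1.54, limma-trend adjusted p = 0.154). All 3 RasV12 values lay below the background estimate of 219 to 328 normalized counts.

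Per length, the order of the genes differed between the sorted populations. In control GFP+ cells Rras led with 69.4 ± 13.2 FPKM (fragments per kilobase of exon, scaled by depth, SD, n = 3), followed by Hras with 47.9 ± 9.3, Nras with 21.9 ± 4.9 and Rras2 with 7.77 ± 7.21, and these neighbours did not overlap. In RasV12 GFP+ cells Rras and Hras stood at 60.9 ± 20.3 and 47.9 ± 10.7 FPKM and overlapped. In control CD11b+ cells Nras had the highest mean at 22.0 ± 4.1 FPKM and Hras the fifth at 6.70 ± 2.82, and all neighbours in that order overlapped. RasV12 CD11b+ cells had Nras first at 21.0 ± 11.6 and Hras last at 1.23 ± 1.79 FPKM. Hras made up 32.8% ± 6.0 of the summed level of the 4 Ras genes in control GFP+, 38.3% ± 9.2 in RasV12 GFP+, 14.5% ± 1.3 in control CD11b+ and 6.00% ± 9.25 in RasV12 CD11b+ cells.

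Rasa1 (chromosome 13, 85214780 to 85289130, minus strand, exon length 7320 bases) is the gene of p120 RasGAP. It was the 1 of the 8 genes called as higher in RasV12 than in control GFP+ cells. Control GFP+ libraries held 1195.0, 748.3 and 862.7 normalized counts and RasV12 GFP+ libraries 3724.3, 2223.0 and 2504.9. Every tumor library was above every control library, and the means of 935 ± 232 and 2817 ± 798 differed 3.01-fold (log2 fold change 1.58 ± 0.38, limma-trend adjusted p = 0.0232). Over all genes tested, 6.79% passed in this comparison, 4.14% as higher and 2.65% as lower. Background was at most 2.65% of the Rasa1 value in any GFP+ library. The call was lost without control GFP+ 2 or 3 (adjusted p = 0.0799 and 0.0632) or RasV12 GFP+ 1, 2 or 3 (0.117, 0.0546 and 0.0649), with edgeR on recovered reads (log2 fold change 1.62, adjusted p = 0.122), with quantile scaling (0.0832) and with either background subtraction (0.351 and 0.103). The log2 fold change stayed between 1.36 and 2.12 over the 27 alternatives. The fit shares its spread over the 4 groups, so subtraction in CD11b+ libraries also enters the adjusted p-values of the 2 background subtractions.

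CD11b+ cells showed the other order. Rasa1 had 2001.3, 1820.1 and 2355.2 normalized counts in control and 1140.8, 996.9 and 1602.9 in RasV12 CD11b+ libraries, groups that did not overlap, with a difference that did not pass the test (log2 fold change -0.74 ± 0.38, limma-trend adjusted p = 0.223). The test of the difference between the RasV12 effects in the 2 cell populations passed for Rasa1 (-2.33 ± 0.54, limma-trend adjusted p = 0.0276), and for none of the other 7 genes. Over all genes tested, 4.4% passed, 2.06% as higher and 2.34% as lower. Without control GFP+ 2 or 3 the adjusted p was 0.0573 and 0.0578, without RasV12 GFP+ 1, 2 or 3 it was 0.0846, 0.0543 and 0.0613, and without control CD11b+ 1 or 3 it was 0.0605 and 0.0793. Without the shallow RasV12 CD11b+ 1 and 2 together it was -1.93 (adjusted p = 0.0913), where RasV12 CD11b+ 3 alone was assumed to vary like the other groups.

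The order of the cell populations differed between tumors and controls for Rasa1. In tumors it fell from GFP+ to CD11b+ cells by 1.17 ± 0.38 on the log2 scale (limma-trend adjusted p = 0.0267), and in controls it rose by 1.16 ± 0.38 (adjusted p = 0.0390). The call in tumors was lost without RasV12 GFP+ 1 or 3 (adjusted p = 0.109 and 0.0593), without RasV12 CD11b+ 1 or 2 (0.0557 and 0.0636) and without the last pair together (-0.78, adjusted p = 0.235, with 1 RasV12 CD11b+ library left, assumed to vary like the other groups). The call in controls was lost without control GFP+ 2 or 3 (0.114 and 0.0902), RasV12 GFP+ 2 or 3 (0.0548 and 0.0554) or control CD11b+ 1 or 3 (0.0685 and 0.102), and under 7 other settings. The background estimate came to 66.1%, 88.6% and 34.2% of the Rasa1 value in RasV12 CD11b+ libraries, and its part in the comparison in tumors was not tested beyond the subtraction, under which Rasa1 was lower by 2.91 (log2 fold change -2.91 ± 0.69, adjusted p = 0.0140).

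Nf1 (chromosome 11, 79339693 to 79581612, plus strand, exon length 15850 bases) had the lowest level per length of the 8 genes in control GFP+ cells, at 0.667 ± 0.379 FPKM. Control GFP+ libraries held 139.6, 117.9 and 286.9 normalized counts and RasV12 GFP+ libraries 780.4, 335.3 and 312.2. All tumor libraries lay above all control libraries, by 2.62-fold in means, and the difference did not pass the test (log2 fold change 1.37 ± 0.60, limma-trend adjusted p = 0.229). The background estimate was 23.0% of the mean in control and 18.7% in RasV12 GFP+ cells.

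CD11b+ libraries held 862.3, 910.1 and 544.4 in controls and 895.7, 913.8 and 1485.2 in RasV12, above the GFP+ libraries of the same genotype. In tumors the difference from GFP+ cells did not pass the test (log2 fold change 1.3 ± 0.60, limma-trend adjusted p = 0.0978) and passed in none of 27 alternatives, and with background subtracted it was -5.43 (adjusted p = 0.0959). In controls Nf1 rose from GFP+ to CD11b+ cells by 2.16 ± 0.60 on the log2 scale (4.26-fold in means, limma-trend adjusted p = 0.0194). This call was lost without control GFP+ 1 or 2 (adjusted p = 0.0509 and 0.0571) or control CD11b+ 1 or 2 (0.0534 and 0.0530), with quantile scaling (0.0804) and with edgeR (0.10). The background estimate was 93.8% of the Nf1 value in control CD11b+ 2 and 144%, 160% and 65.7% in RasV12 CD11b+ libraries, and with it subtracted the difference in controls was 0.92 ± 2.16 (adjusted p = 0.900). Across the 12 libraries Nf1 correlated with background per kb with r of 0.83, a description over libraries that also differ in cell type and depth. Omg, Evi2, Evi2a and Evi2b lie within introns of Nf1 and share no exonic base with it.

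Sos1 (chromosome 17, 80393751 to 80480453, minus strand, exon length 10594 bases), the widely expressed exchange factor that couples receptors to Ras, passed the test in none of the 5 comparisons. It had 500.7, 1315.3 and 306.2 normalized counts in control GFP+ and 591.6, 399.5 and 322.2 in RasV12 GFP+ libraries. CD11b+ libraries held 221.8, 785.8 and 417.6 in controls and 1007.1, 841.8 and 502.7 in RasV12. Libraries overlapped between all neighbouring groups, and control GFP+ 2 stood above every other GFP+ library. The background estimate was 85.9%, 116% and 130% of the Sos1 value in RasV12 CD11b+ libraries, so the value did not exceed the estimate in 2 of them.

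Braf (chromosome 6, 39603237 to 39725463, minus strand, exon length 13862 bases) was the 1 gene of the 8 called as higher in CD11b+ than in GFP+ cells of tumors. RasV12 GFP+ libraries held 421.8, 604.8 and 471.7 normalized counts and RasV12 CD11b+ libraries 2927.8, 3151.2 and 3480.3, a log2 fold change of 2.68 ± 0.48 (6.38-fold in means, limma-trend adjusted p = 0.00180). The call stood in 26 of 27 alternatives and not in edgeR (1.40, adjusted p = 0.0884). The background estimate was 52.0%, 51.5% and 30.9% of these RasV12 CD11b+ values, and with it subtracted the log2 fold change was 2.03 ± 0.45 (adjusted p = 0.0112). Control libraries held 871.9, 721.8 and 1055.0 in GFP+ and 881.1, 3204.7 and 1273.8 in CD11b+ cells. Control CD11b+ 2, which had the high background of its group, stood with the RasV12 libraries, and Braf over 12 libraries correlated with background per kb with r of 0.89.

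RasV12 against control, Braf did not pass the test in either population. In GFP+ cells every tumor library was below every control library (1.77-fold in means, log2 fold change -0.82 ± 0.48, limma-trend adjusted p = 0.407). In CD11b+ cells the log2 fold change was 1.05 ± 0.48 (adjusted p = 0.183) and, without control CD11b+ 2, 1.58 (adjusted p = 0.0226). Without that library the difference of the RasV12 effects also passed, at 2.40 (adjusted p = 0.0202), against 1.87 ± 0.68 with it (adjusted p = 0.143). Libraries did not mark strand, and 146 exonic bases of Braf, 1.05% of its exon length, overlap Ndufb2 on the other strand, as do 12 bases of Rasa1 with Ccnh.

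**Figure D2:**
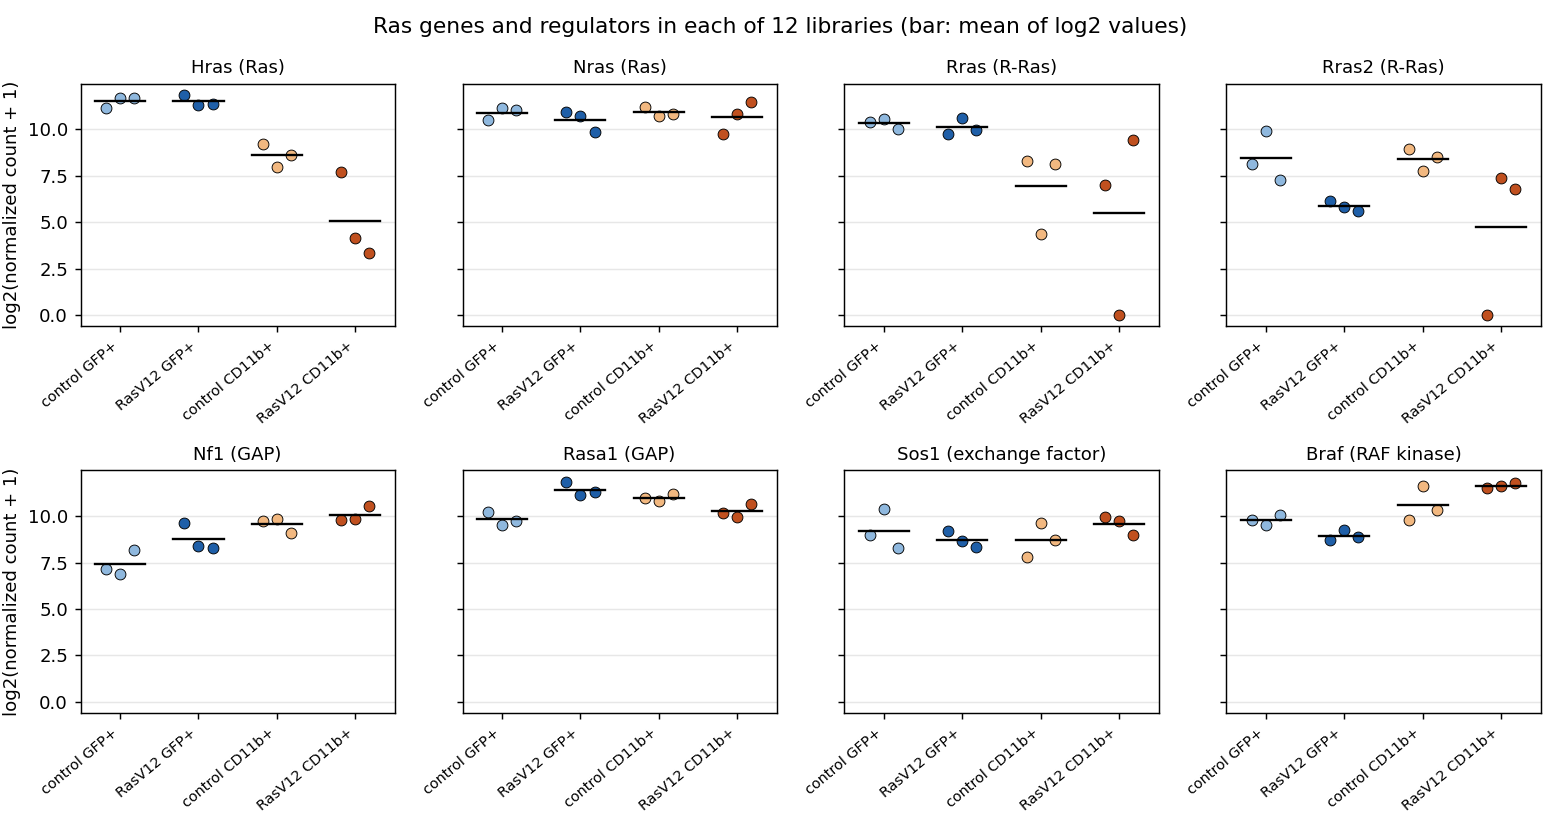
Normalized counts of the 8 genes in each of the 12 libraries as log2(normalized count + 1), with the mean of the log2 values of each group as a bar. Hras is high in all 6 GFP+ libraries and low in CD11b+ libraries, Nras is level across groups, and Rasa1 is highest in RasV12 GFP+ libraries.

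Over the 8 genes, RasV12 against control called 1 in GFP+ cells (Rasa1, higher) and 1 in CD11b+ cells (Hras, lower), where 6.79% and 5.36% of all genes tested passed. In CD11b+ cells 2.97% of all genes passed as higher and 2.39% as lower. These shares come from the fit of all 12 libraries. In the fit of the 6 CD11b+ libraries alone, 0 of 29835 genes passed for RasV12 against control. CD11b+ against GFP+ cells called 3 in tumors (Hras and Rasa1 lower, Braf higher) and 3 in controls (Hras lower, Nf1 and Rasa1 higher), where 40.1% and 26.2% of all genes passed. By direction, 29.8% passed as higher and 10.2% as lower in tumors, and 19.3% and 6.91% in controls. The shares of 37.5% in tumors and in controls were near those over all genes, and 12.5% stands for 1 gene. Groups did not overlap for 4, 3, 5 and 4 of the 8 genes in these comparisons, against 28.2%, 27.6%, 50.8% and 45.6% of all genes. Of these, 17.2%, 19%, 36% and 32.9% were higher and 10.9%, 8.59%, 14.8% and 12.7% lower, in the same order of comparisons. The genes without overlap were Nf1 and Rasa1 (higher) and Rras2 and Braf (lower) for RasV12 in GFP+ cells, and Hras, Rras2 and Rasa1 (all lower) for RasV12 in CD11b+ cells. Between populations they were Hras, Rras and Rasa1 (lower) and Nf1 and Braf (higher) in tumors, and Hras and Rras (lower) and Nf1 and Rasa1 (higher) in controls. The median log2 fold changes of the 8 genes were -0.31, -0.48, -0.48 and -0.01, below the medians over all genes of 0.56, 0.74, 1.79 and 1.80. The medians over all genes depended on processing. They were 0.05, 0, 0 and 0 with background subtracted and -0.12, 0.13, 0.30 and -0.02 with quantile scaling. The comparisons share groups, so their values are not independent of each other.

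**Figure D3:**
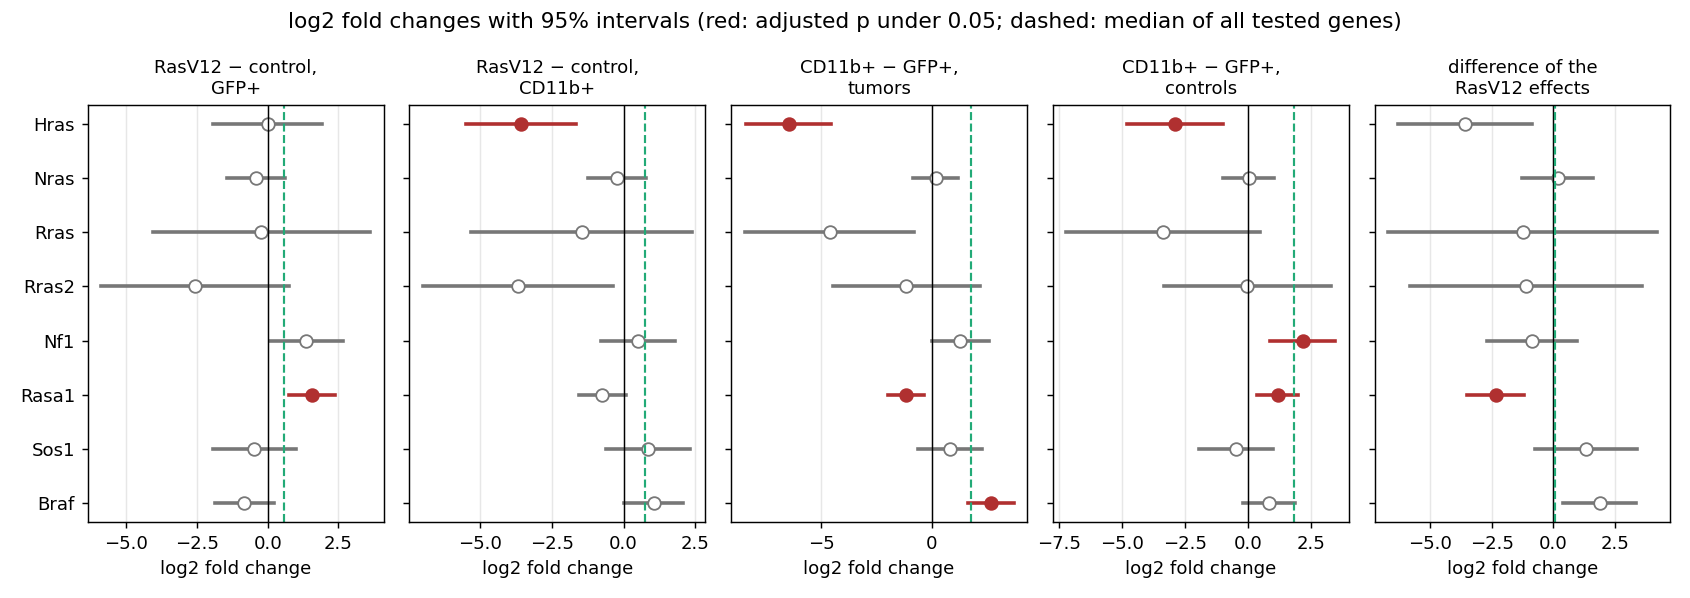
log2 fold changes of the 8 genes with 95% intervals in the 5 comparisons, from the fit of all 12 libraries. Filled red points passed at an adjusted p under 0.05, and the dashed line is the median over all genes tested, which lies above 0 in each comparison.

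**Figure D4:**
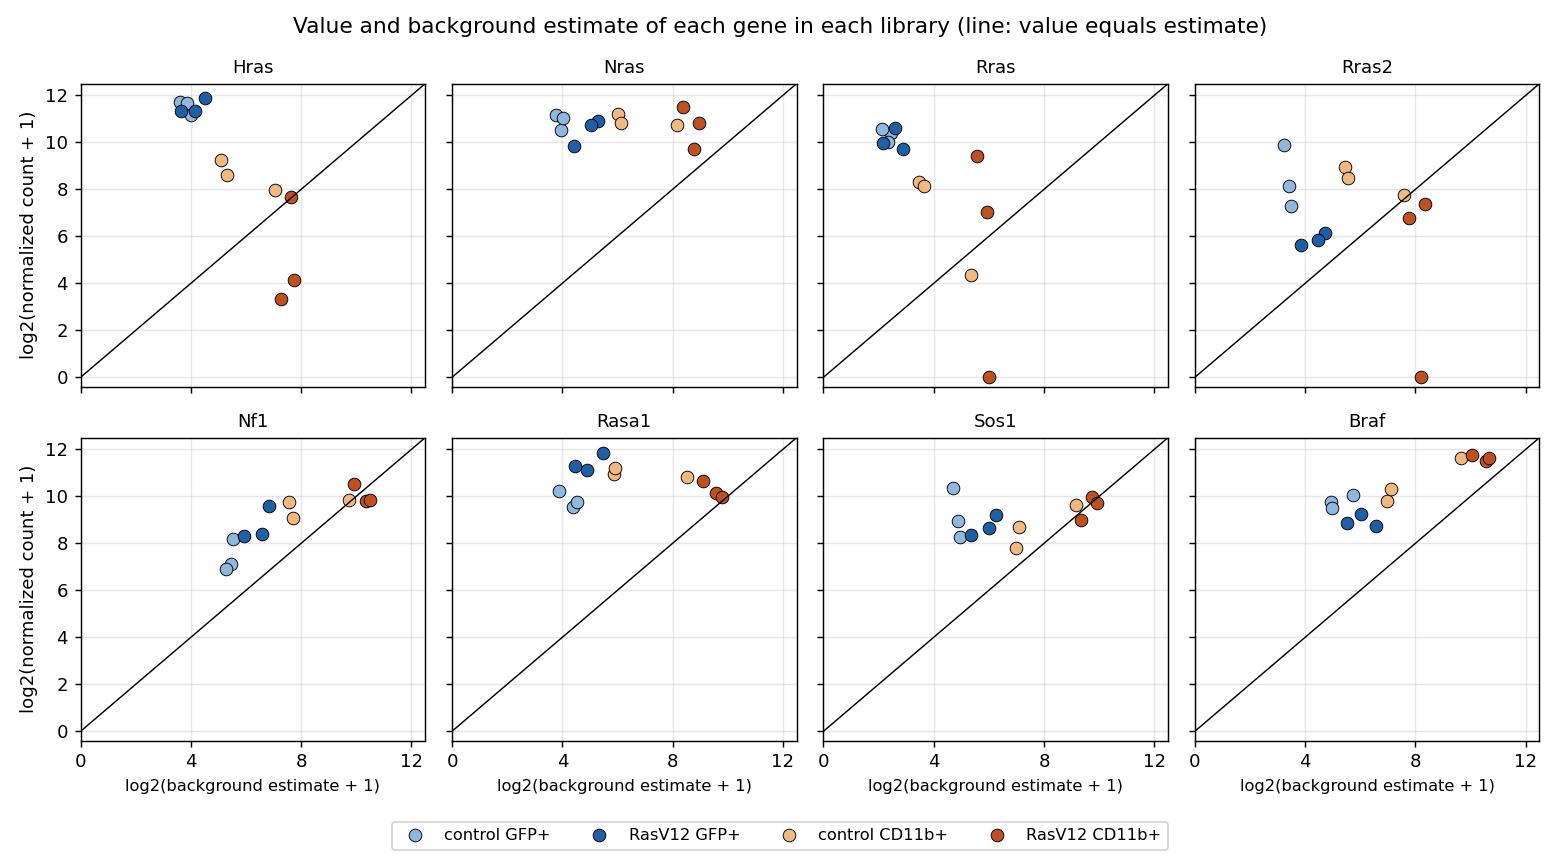
The value of each gene in each library against the background estimate for its length and GC content, both as log2(x + 1), with a line where both are equal. All 8 genes lie above the line in GFP+ libraries. In RasV12 CD11b+ libraries Nf1 and Sos1 lie on or near it, and Rras2 lies below it. Hras in RasV12 CD11b+ 2 and 3 and Rras in RasV12 CD11b+ 2 lie far below it.

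Around these genes, 49 of 50 listed genes of the Ras pathway were tested. In RasV12 against control GFP+ cells 3 were higher and 3 lower (12.2%, against 6.79% of all genes tested), with a median log2 fold change of 0.02 against 0.56 over all genes. Rap1b, a small GTPase of the Rap branch, rose from 3381 ± 1591 to 12699 ± 708 normalized counts (3.76-fold in means, limma-trend adjusted p = 0.00750). Shc1, an adaptor of receptor tyrosine kinases, rose from 147 ± 91 to 1134 ± 198 (adjusted p = 0.0473), and Rassf5, an effector that binds active Ras, had no read in control and 59.6 ± 27.9 in RasV12 libraries (adjusted p = 0.00166). Ptpn11, the gene of the phosphatase SHP2, fell by 1.88 ± 0.45 on the log2 scale, with means of 3043 ± 736 and 816 ± 97 (adjusted p = 0.0218). Fnta, a subunit of the farnesyltransferase that attaches the Ras membrane anchor, fell from 4282 ± 836 to 1359 ± 415 (adjusted p = 0.0190), and Mras, a Ras relative, fell from 1994 ± 241 to 196 ± 91 (adjusted p = 0.0495). Shc1 and Mras were named after their values were seen. The call of Rassf5 stood in all 27 alternatives. That of Rap1b was lost with edgeR (adjusted p = 0.109) and with background subtracted (0.0524). That of Fnta was lost without control GFP+ 2 or 3 or RasV12 GFP+ 1 or 3 (adjusted p = 0.0557 to 0.0892). That of Ptpn11 was lost without control GFP+ 1 or 3 or RasV12 GFP+ 1, 2 or 3 (0.0547 to 0.0793). With upper-quartile scaling, quantile scaling and edgeR both were lost, at 0.132, 0.139 and 0.113 for Fnta and 0.108, 0.158 and 0.0738 for Ptpn11. Ptpn11 was also lost under both background subtractions (0.386 and 0.132), where its log2 fold change was -1.93 in each. Mean background estimates in control and RasV12 GFP+ cells were 26.5 and 33.4 for Ptpn11 and 7.77 and 14.1 for Rap1b. The fit shares its spread with CD11b+ libraries, so subtraction there also enters these adjusted p-values. Shc1 and Mras were kept in 13 and 10 of 27 alternatives. That of Shc1 was lost without control GFP+ 1 or 3, any RasV12 GFP+ library, control CD11b+ 1 or 3 or RasV12 CD11b+ 2 (0.0509 to 0.152), and that of Mras on leaving out any 1 library of control GFP+, RasV12 GFP+ or control CD11b+ (0.0578 to 0.162). None of 8 further GAP genes, 6 exchange factors, 5 RAF kinases and scaffolds and 4 kinases below RAF passed in this comparison by limma-trend, where 5688 of all genes had an unadjusted p under 0.05.

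In RasV12 against control CD11b+ cells none of the 49 was higher and 2 were lower (4.08%, against 5.36% of all genes), both enzymes that finish the Ras membrane anchor after farnesylation. Rce1, the CAAX protease, stood at 629 ± 435 in control and 37.0 ± 18.8 in RasV12 CD11b+ libraries (log2 fold change -3.75 ± 0.81, limma-trend adjusted p = 0.0219). Icmt, the methyltransferase, stood at 543 ± 416 and 5.0 ± 8.66 (adjusted p = 0.00926), the latter from 25 reads in the group. Both RasV12 means lay below their background estimates of 105 and 267. Without control CD11b+ 1 or 3 both calls were lost, with adjusted p of 0.106 and 0.111 for Rce1 and 0.0512 and 0.0524 for Icmt. Both were also lost in the fit of 6 libraries (0.131 for Rce1 and 0.120 for Icmt), where 0 of all genes passed. The Icmt call was lost with background subtracted too (0.114 and 0.110 in the 2 versions). Without RasV12 CD11b+ 1 and 2 together, with 1 library left in that group, the log2 fold changes were -3.58 for Rce1 and -4.44 for Icmt. The difference of the RasV12 effects passed for 3 of 49 genes (6.12%, against 4.4% of all genes), all negative: Rassf5, Rap1b (-2.63 ± 0.55, adjusted p = 0.0168) and Rce1 (-4.64 ± 1.15, adjusted p = 0.0380). The last was lost on leaving out any 1 library of control GFP+ or RasV12 GFP+, control CD11b+ 1 or 3 or RasV12 CD11b+ 1 (0.0575 to 0.114), without the filter (0.0508) and without RasV12 CD11b+ 1 and 2 together (0.0816). That of Rap1b was lost without control CD11b+ 3 (0.0566) and without that pair (0.124).

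Between CD11b+ and GFP+ cells, 8 of the 49 were higher and 11 lower in tumors (38.8%, against 40.1% of all genes), and 10 were higher and 6 lower in controls (32.7%, against 26.2%). In tumors Rce1 and Icmt were lower, from 836 ± 237 and 297 ± 95 in GFP+ cells (limma-trend adjusted p = 0.00179 and 0.00204). Rasgrp4, an exchange factor of mast and myeloid cells, stood at 2.87 ± 4.97 in GFP+ and 479 ± 347 in CD11b+ cells of tumors (adjusted p = 0.00225), and the GAP gene Rasal3 had no read in GFP+ and 790 ± 262 in CD11b+ cells (adjusted p = 0.00206). In controls Rasgrp3, an exchange factor opened by diacylglycerol, rose from 207 ± 160 to 3713 ± 1040 (adjusted p = 0.00219), and Rassf5 from no read to 3462 ± 2097 (adjusted p = 5.75e-06). Pebp1, which encodes a RAF inhibitor, fell from 2470 ± 498 to 215 ± 141 (adjusted p = 0.00130), and Ptpn11 from 3043 ± 736 to 623 ± 159 (adjusted p = 0.00316). By role, 4 of 6 exchange factors were higher in tumors and 3 of 6 in controls, with none lower, where 29.8% and 19.3% of all genes were higher. Of 13 other effectors and processing genes, 1 was higher and 7 lower in tumors, and 2 higher and 3 lower in controls. For 8 GAP genes, 1 was higher and 1 lower in tumors, and 3 higher and 1 lower in controls. All genes passed as lower in 10.2% and 6.91%. In RasV12 CD11b+ cells the means of the 4 exchange factors higher in tumors, Rasgrp4, Rasgrp3, Rasgrf2 and Sos2, were 479, 725, 869 and 1486, beside background estimates of 322, 458, 467 and 668. The calls named for these 2 comparisons stood without any single library. In tumors that of Rasgrp4 was lost with edgeR (0.0843), under both background subtractions (0.0713 and 0.0695) and without RasV12 CD11b+ 1 and 2 together (0.0594), and that of Icmt without that pair (0.0571). In controls, with background subtracted, those of Rasgrp3 (0.267 and 0.197 in the 2 versions), Pebp1 (0.151) and Ptpn11 (0.0881) were lost. Rasgrf2 and Sos2 were named after their values were seen.

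Among 13009 genes with a mean of at least 100 normalized counts, those whose log2 values followed each gene most closely over the 12 libraries are given as a description, since points share group, depth and background. For Hras they were Tmem261 (r = 0.984) and Vps29 (0.979), and for Nras Socs4 (0.850) and Ctcf (0.847). For Rras they were Mrps18a (0.977) and Copz1 (0.970), and for Rras2 Whamm (0.951) and Wdr13 (0.939). Rasa1 was followed most closely by CAAA01118383.1 (0.966) and by Tnfrsf1a (0.952), the gene of a TNF receptor, which stood at 196 ± 110, 3731 ± 173, 2801 ± 1414 and 548 ± 310 in control GFP+, RasV12 GFP+, control CD11b+ and RasV12 CD11b+ cells. Sos1 was followed by Pick1 (0.881) and Appl1 (0.879), Nf1 by the olfactory receptor pseudogene Olfr1001-ps1 (0.954) and Abca13 (0.954), and Braf by Cdh7 (0.959) and Grin2b (0.957), the gene of a neuronal glutamate receptor subunit. Grin2b stood at 371 ± 28 in control GFP+ and 2628 ± 280 in RasV12 CD11b+ cells.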

How the data were processed

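Of the 12 libraries, made per the labels' protocols from low RNA input with SMARTer and Nextera XT kits, the authors deposited normalized counts (treated as a signal: reads over a size factor) and FPKM values. The submitters' processing notes list GRCm38.p6 as the build and, as tools, DESeq2 1.20.0, Subread 1.6.2, HISAT2 2.1.0, bcl2fastq 2.17.1.14 and featureCounts, without roles. In every library at least 99.996% of normalized counts were multiples of a common step (tolerance 0.05), so reads could be recovered. A read stood for 0.358 to 5.54 normalized counts, with RasV12 CD11b+ 1 and 2 the coarsest.

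The 29835 genes that reached 10 normalized counts in 3 or more libraries were tested in R 4.3.3 by limma-trend (limma 3.58.1), which took log2(normalized count + 1) values and 4 group means over 12 libraries, 5 comparisons, Benjamini-Hochberg adjustment at 0.05 and two-sided tests. Fold changes on this scale understate the change of low genes, and fold changes in means are ratios of mean normalized counts. The background estimate of a gene was its exon length times the counts per kb over 5125 receptor or TEC genes, taken within 5 GC classes. Summed over genes, it came to 56.1 to 71.3% of counts outside mitochondrial genes in RasV12 CD11b+ libraries. With each gene's estimate capped at its value, the sum came to 34.1 to 41.3%. Ratios of Hras to Nras used normalized counts times each gene's FPKM per normalized count. Alternatives were the FPKM table, other scalings, pseudocounts, filters and variance settings, a replicate block, fits to 6 libraries, edgeR 4.0.16 and DESeq2 1.42.0 on recovered reads, background subtraction in 2 versions (the version without the top 5% of background genes and the leave-outs of the Hras ratio were chosen after seeing the data, as was running the alternatives for the wider list) and leaving out libraries. All 8 genes are named; of the wider list, up to 4 genes a comparison with the smallest adjusted p, and for likeness the 2 genes with the highest r and no predicted or clone name by a fixed pattern, which CAAA01118383.1 passed. The members and lists were chosen with earlier results of these data known. The fits were also run on simulated reads whose changes were known. Apart from those changes, all simulated libraries had the same expression profile and no added background. They cannot show how the fits behave under the background and cell type differences of these libraries. Rasgrp2 has 2 rows in the tables and was left out. Intervals and limits from reads cover counting error only. The coding stretch of 1 Ras gene is not reported here.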

Additional observations from a re-analysis of the deposited data

Results flagged for a closer look

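Rasa1 differed between the cell populations in its response to RasV12 by the test of that difference itself: the RasV12 effect in CD11b+ cells minus that in GFP+ cells was -2.33 ± 0.54 on the log2 scale (limma-trend adjusted p = 0.0276). The effect was 1.58 in GFP+ cells, where tumor libraries were higher in 3 of 3, and -0.74 in CD11b+ cells, where they were lower in 3 of 3.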

How the results depend on the processing

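Over 27 alternatives, 921 of 1072 fold changes kept direction and side of the threshold, 65 lost a call, 23 gained one and 63 changed sign. None of the last was a fold change called in the values as reported, and 1, Sos1 in tumors, passed with its sign changed. The cause was not tested. The number of the 8 genes called for RasV12 in GFP+ cells was 0 with quantile scaling, edgeR or either background subtraction and 2 with DESeq2 (0 to 1 without single libraries). For RasV12 in CD11b+ cells it was 0 without the filter, with edgeR, with DESeq2 and in the fit of 6 libraries, where 0 of all genes passed. It was 2 with quantile scaling and either subtraction (0 to 2 without single libraries). It was 5 in tumors with background subtracted. In controls it was 0 with quantile scaling, 1 with edgeR, 1 and 0 with the 2 subtractions and 0 to 4 without single libraries. For the difference of effects it was 2 with upper-quartile or quantile scaling or background subtracted (0 to 2 without single libraries). Upper-quartile and quantile scaling moved the median of all genes in GFP+ cells from 0.56 to 0.91 and -0.12.

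Log2 fold changes that changed sign were these. With upper-quartile scaling, RasV12 in GFP+ cells gave 0.54 for Hras, 0.14 for Nras, 0.32 for Rras and 0.074 for Sos1, RasV12 in CD11b+ cells -0.12 for Nf1, tumors -0.18 for Nras, controls 0.75 for Rras2 and 0.30 for Sos1, and the difference -0.99 for Nras. Hras in GFP+ cells was 0.23 with quantile scaling, 0.046 with edgeR and 0.0009 with DESeq2. With edgeR, CD11b+ cells gave -0.23 for Nf1 and -0.077 for Sos1, tumors -0.87 for Nras and -0.52 for Sos1, controls -0.34 for Nras, and the difference -0.53 for Nras and 0.046 for Rras2. With DESeq2, CD11b+ cells gave 0.39 for Rras, tumors 0.66 for Rras2, and the difference 0.58 for Rras and 1.03 for Rras2. With background subtracted in both versions, CD11b+ cells gave -4.89 and -5.41 for Nf1 and -5.11 and -2.08 for Sos1, tumors -0.33 and -0.20 for Nras, -5.43 and -5.29 for Nf1 and -6.13 (adjusted p = 0.0270) and -2.80 for Sos1, controls -0.096 and -0.074 for Nras, and the difference -0.23 and -0.12 for Nras and -4.52 and -1.50 for Sos1. Without RasV12 CD11b+ 1 and 2 together, CD11b+ cells gave 0.59 for Nras and 2.47 for Rras, tumors 0.91 for Rras2, and the difference 2.69 for Rras and 0.95 for Rras2. Without single libraries, GFP+ cells ranged from -0.18 to 0.091 for Hras and -0.94 to 0.11 for Sos1, CD11b+ cells from -0.63 to 0.26 for Nras and -3.43 to 1.27 for Rras, tumors from -0.21 to 0.67 for Nras and -2.48 to 1.21 for Rras2, controls from -0.18 to 0.14 for Nras, -0.62 to 0.69 for Rras2 and -0.96 to 0.093 for Sos1, and the difference from -0.23 to 0.66 for Nras, -3.21 to 1.49 for Rras and -2.44 to 1.25 for Rras2.

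None of 18 same-number pairs of libraries had deviations correlated over 0.1 (r of -0.029 to 0.090). These correlations cannot decide whether libraries of the same number came from the same animals, which the labels do not name. With the replicate block 4 genes were called in tumors, Rras added (adjusted p = 0.0377), and counts in the other comparisons stayed at 1, 1, 3 and 1. Of the wider list's named calls, the block lost those of Shc1 and Mras in GFP+ cells and of Rce1 in the difference. Depth limits RasV12 CD11b+ 1 and 2, where 3 reads are worth 13.4 and 16.6 normalized counts, and background limits Hras, Nf1, Sos1 and Rras2 in RasV12 CD11b+ cells.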
